A study of Mus musculus with 36 samples.

Results

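The genes described here control the balance between glucose synthesis and glucose breakdown in the liver. They were chosen by name for their place in these pathways, with earlier results of these data known. In all, 9 genes were named: Pck1, G6pc, Fbp1, Pcx, Pklr, Ppargc1a, Slc2a2, Pfkfb1 and Slc37a4. Of these, 8 had values, matched through the gene name or the accession of a probe, with 10 probes among the 21781 probes (13042 named genes) of the authors' processed table, and Pck1 was not analysed here. Slc2a2 and Ppargc1a had 2 probes each, and the other 6 genes had 1.

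Gluconeogenesis makes glucose from lactate, alanine and glycerol. It begins in the mitochondrion, where pyruvate carboxylase (Pcx) forms oxaloacetate, passes fructose-1,6-bisphosphatase (Fbp1) and ends in the endoplasmic reticulum. There, glucose-6-phosphatase (G6pc) releases free glucose from the glucose-6-phosphate that the carrier Slc37a4 brings in. The transporter Slc2a2, known as GLUT2, carries glucose across the hepatocyte membrane in both directions. In the opposite pathway, liver pyruvate kinase (Pklr) catalyses the last step of glycolysis, and the bifunctional enzyme Pfkfb1 makes and removes fructose-2,6-bisphosphate, the signal that drives glycolysis and restrains Fbp1. Ppargc1a encodes PGC-1α, a coactivator of transcription that rises in the fasted liver and is known to induce gluconeogenic genes.

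The livers came from adult male mice of strain C57BL/6J according to the sample labels, all kept on a mild-high-fat diet with 30% of its energy as fat. The baseline group (t=0, 12 mice) was killed after the adaptation to this diet, which lasted 3 weeks per the labels. The control group (HF, 12 mice) stayed on the diet for 12 more weeks, and the quercetin group (HF-Q, 12 mice) received it with 0.33% (w/w) of quercetin, a plant flavonol, for the same 12 weeks. For these 2 groups the study's methods instead name the substrain C57BL/6JOlaHsd and an adaptation of 2 weeks. All mice were fasted for at least 2 h before they were killed. Each of the 36 Agilent two-colour arrays held the Cy5-labelled RNA of a single liver and a Cy3-labelled pool of all livers. A difference between either 12-week group and the baseline group holds time on the diet, age and day of killing together, which cannot be told apart.

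The values are the authors' log2 values of Cy5 normalized against Cy3, centred so that every array has a median of 8.9613. They are reported as log2 values without comparing the level of a probe with that of another probe. All 10 probes were well above background in both channels on all 36 arrays and none was saturated, with a mean Cy5 signal from 8.67 times background for the dimmer Ppargc1a probe to 6900 times for Fbp1. A shift in a bulk liver sample cannot tell a change in the number of cells of a type from a change in RNA per cell.

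Over all arrays, 56.42 to 67.35% of spots were well above background in Cy5, except on that of quercetin replicate 2, where 96.72% were. The summed linear value of 9 hepatocyte markers ranged from 1010000 to 1640000 at baseline, 1150000 to 1600000 among control livers and 1080000 to 1760000 among quercetin livers. The sum of 5 pancreas acinar markers reached 2830000 in control replicate 5 and lay between 2300 and 3330 in all other livers. The sums of the cholangiocyte, macrophage, stellate, endothelial, lymphocyte and adipocyte markers overlapped between all groups. The 4 erythroid markers summed to 51700 to 97200 in the baseline group and to at least 98200 in every liver of the 12-week groups.

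Pcx and Ppargc1a were the 2 members that differed significantly from baseline in the control group. They are shown first with the 250 bases before an annotated start in RefSeq (build GRCm38.p6), written 5′ to 3′ along the gene. For Pcx this is the upstream one of its annotated starts. Motifs of known regulators of glucose genes can be read in such stretches. Capitals mark every match, on either strand, to the E-box CACGTG, the cyclic AMP response element TGACGTCA and its half-site TGACG, the forkhead letters GTAAACA, the D-box TTATGTAA and the CCAAT box. The half-site lies inside the full element, so that a full element would count for both. The Pcx stretch is chr19:4510222-4510471 on the plus strand and the Ppargc1a stretch is chr5:51567726-51567975 on the minus strand.
Pcx: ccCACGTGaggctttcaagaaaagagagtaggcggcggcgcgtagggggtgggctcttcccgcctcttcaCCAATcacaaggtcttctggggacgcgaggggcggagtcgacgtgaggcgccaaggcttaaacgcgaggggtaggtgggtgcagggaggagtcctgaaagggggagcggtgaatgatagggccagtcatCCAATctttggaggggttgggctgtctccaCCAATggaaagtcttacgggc
Ppargc1a: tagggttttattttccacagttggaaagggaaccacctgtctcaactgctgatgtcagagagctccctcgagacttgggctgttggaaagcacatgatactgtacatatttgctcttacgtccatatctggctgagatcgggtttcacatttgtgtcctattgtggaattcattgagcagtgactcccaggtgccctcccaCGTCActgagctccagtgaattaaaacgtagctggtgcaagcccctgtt

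The Pcx stretch held an E-box 243 to 248 bases before the start, which 6.02% of all 32851 promoters of the table hold in the same window, and 3 CCAAT boxes, a motif present at least once in 33.8%. The Ppargc1a stretch held a single CRE half-site on the reverse strand, 45 to 49 bases before the start, a motif found in 17.8% of promoters. The same window of a second, downstream start of Pcx (chr19:4594069-4594318) held none of these letters. Which annotated start is used in these livers was not analysed here. The full CRE, which 1.55% of promoters hold, the forkhead letters (3.17%) and the D-box (0.819%) were not in these windows of either gene. Sequence outside these windows was not searched, so that the motifs may lie elsewhere in the promoters.

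On the genome build of the array annotation (mm8), the probe of G6pc lies at chr11:101193723-101193782, that of Pcx at chr19:4621637-4621696, that of Fbp1 at chr13:62874438-62874497 and that of Slc37a4 at chr9:44153899-44153957. The brighter probe of Ppargc1a lies at chr5:51745937-51745996 and the dimmer at chr5:51743906-51743965, and those of Slc2a2 at chr3:28919167-28919226 and chr3:28917404-28918112. The Pklr probe spans chr3:89230912-89231430 and the Pfkfb1 probe lies at chrX:145984444-145984503. Whether a probe lies in a coding or an untranslated part of an exon was not analysed here.

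The enzymes of gluconeogenesis differed in how widely they varied between livers. G6pc ranged in the baseline livers from 14.06 to 16.20 with a median of 14.71, in the control livers from 14.01 to 15.96 with a median of 15.24, and in the quercetin livers from 13.79 to 16.21 with a median of 14.61. The 3 groups overlapped over most of this span, and the highest liver of the quercetin group had 5.36 times the level of the lowest. The standard deviation of G6pc within groups was 0.68, higher than in 99.1% of all probes, whose median was 0.18. Ppargc1a (0.44, percentile 97.4), Pklr (0.34, percentile 93.7), Pfkfb1 (0.33, percentile 92.7), Slc37a4 (0.32, percentile 92.3) and Fbp1 (0.30, percentile 91) also varied more than most probes. Pcx, at 0.19 (percentile 54.9), varied like a typical probe, and Slc2a2 (0.24, percentile 78.6) lay between.

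The baseline livers were more variable than the control livers for these genes. The standard deviation at baseline exceeded that of the control group for all 8 members, from 1.06 times for Pfkfb1 to 2.09 times for Slc2a2, and 6 of the 8 members exceeded 1.5 times in that ratio before rounding. Over all 21781 probes the median ratio was 0.94, 43.5% of probes exceeded 1 and 11.2% exceeded 1.5. The ratios are a description, and the difference in spread was not tested. Against the quercetin group the ratio exceeded 1 for 6 of the 8 members, beside 44.9% of all probes. The exceptions were Pcx, with an SD of 0.195 at baseline and 0.229 among quercetin livers, and Ppargc1a, with 0.497 and 0.515. For the brighter Slc2a2 probe the widest gap between baseline values, picked from these values, left 2 sets of 6. Replicates 2, 3, 4, 5, 6 and 9 lay at or below 14.21 and the other 6 at or above 14.55. On the dimmer probe the same 6 livers were the lowest, at or below 11.22, and the others lay at or above 11.45. The widest gap of the dimmer probe lay elsewhere, just above replicate 4.

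The other members had these levels. Fbp1, the enzyme that removes a phosphate from fructose-1,6-bisphosphate, ranged from 18.11 to 19.52 in the baseline (median 18.46), from 18.13 to 19.04 in the control (median 18.61) and from 18.20 to 18.98 in the quercetin livers (median 18.56). All control and quercetin livers lay within its baseline range. Slc37a4 ranged in the baseline livers from 14.35 to 15.86 with a median of 15.31, a range that held every liver of the 12-week groups. Slc2a2 ranged from 13.81 to 14.75 in the baseline (median 14.38), from 13.96 to 14.56 in the control (median 14.31) and from 14.01 to 14.65 in the quercetin livers (median 14.29).

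Of the glycolysis side, Pklr ranged from 9.41 to 10.87 in the baseline (median 10.03), from 9.70 to 10.78 in the control (median 10.17) and from 9.47 to 10.45 in the quercetin livers (median 10.17). Its groups overlapped throughout. Pfkfb1 ranged from 12.73 to 13.98 in the baseline (median 13.18), from 12.07 to 13.34 in the control (median 13.05) and from 12.82 to 13.59 in the quercetin livers (median 13.25). Control replicate 1 was its lowest liver, and the next of the control group lay at 12.74.

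**Figure D1:**
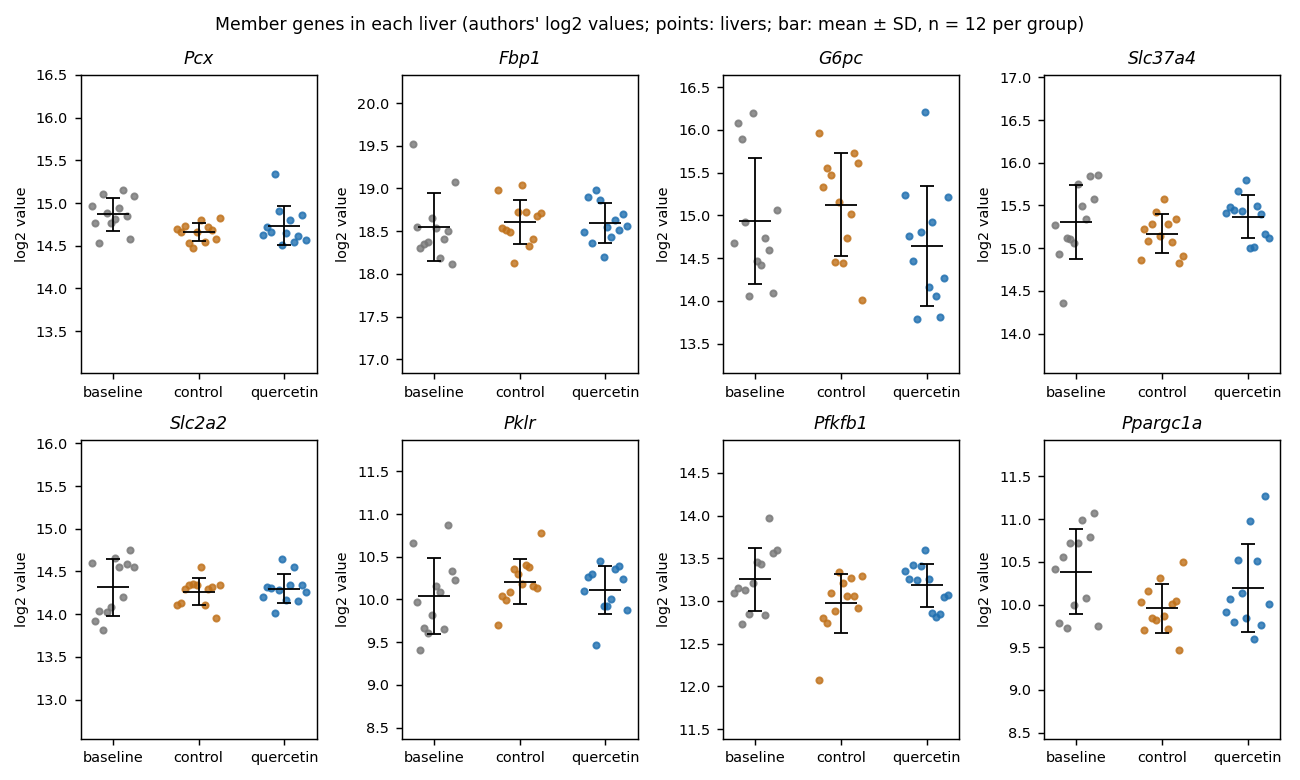
Log2 values of the 8 measured members in each liver, with the brighter probe of Slc2a2 and Ppargc1a. Each point is a single liver, the bar and whiskers are the mean and SD of 12 livers, and all panels span the same log2 range, so that the wide scatter of G6pc, with an SD of 0.74 at baseline, can be set against the narrow one of Pcx in the control group, with an SD of 0.11.

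The comparison of the quercetin and the control group asks which of these genes responded to quercetin in the diet. None of the 8 members and none of the 10 probes differed significantly (limma, adjusted p under 0.05 over all probes), where 513 of 21781 probes (2.36%) did. At an unadjusted p under 0.05 there was 1 member, Slc37a4, against 3359 of all probes, and the methods' t-test called 0 members and 393 probes. The count stayed at 0 without quercetin replicate 2 and without control replicate 5.

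G6pc had the largest difference of the members between these groups. It was 14.64 ± 0.70 (SD, n = 12) in the quercetin and 15.12 ± 0.60 (SD, n = 12) in the control group, a log2 difference of -0.48 with a 95% interval from -0.99 to 0.02 (limma, adjusted p = 0.342). In all, 11 of 12 quercetin livers lay below the control median, and the exception, replicate 6, had the highest value of all 36 livers. Within slides the quercetin liver was lower on 6 of 9 slides. The interval runs from 0.505 to 1.01 times the control level, so that a G6pc level near 0.505 times that of the control group is not excluded by these arrays. With the slide as a block, the difference was -0.34 (limma, adjusted p = 0.568).

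The carrier Slc37a4, which feeds G6pc, lay on the other side. It ranged from 15.00 to 15.80 in the quercetin livers (median 15.42) and from 14.83 to 15.58 in the control livers (median 15.18), and the groups overlapped in 10 of 12 quercetin livers. The difference was 0.20 (SE 0.09, 95% interval 0.01 to 0.39, limma adjusted p = 0.301), with the quercetin liver higher on 8 of 9 slides. Fbp1 differed by -0.01 (95% interval -0.21 to 0.19) and Pcx by 0.08 (95% interval -0.07 to 0.22). For Slc2a2, the 2 probes gave 0.04 and 0.09, with intervals from -0.10 to 0.18 and from -0.10 to 0.28.

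On the side of glycolysis, Pklr differed by -0.10 (95% interval -0.32 to 0.12) and Pfkfb1 by 0.21 (95% interval -0.03 to 0.45) between the quercetin and the control group. The brighter Ppargc1a probe was higher by 0.24 (95% interval -0.08 to 0.57, limma adjusted p = 0.464) and the dimmer one by 0.29 (95% interval -0.00 to 0.57, limma adjusted p = 0.325). All 12 quercetin livers lay above the control median on the dimmer probe and 7 of 12 on the brighter. The intervals of Slc2a2, Fbp1 and Pcx leave room for at most a 1.22-fold difference in either direction, whereas the interval of G6pc leaves room for a larger fall, but not rise, and that of Ppargc1a for a larger rise, but not fall.

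**Figure D2:**
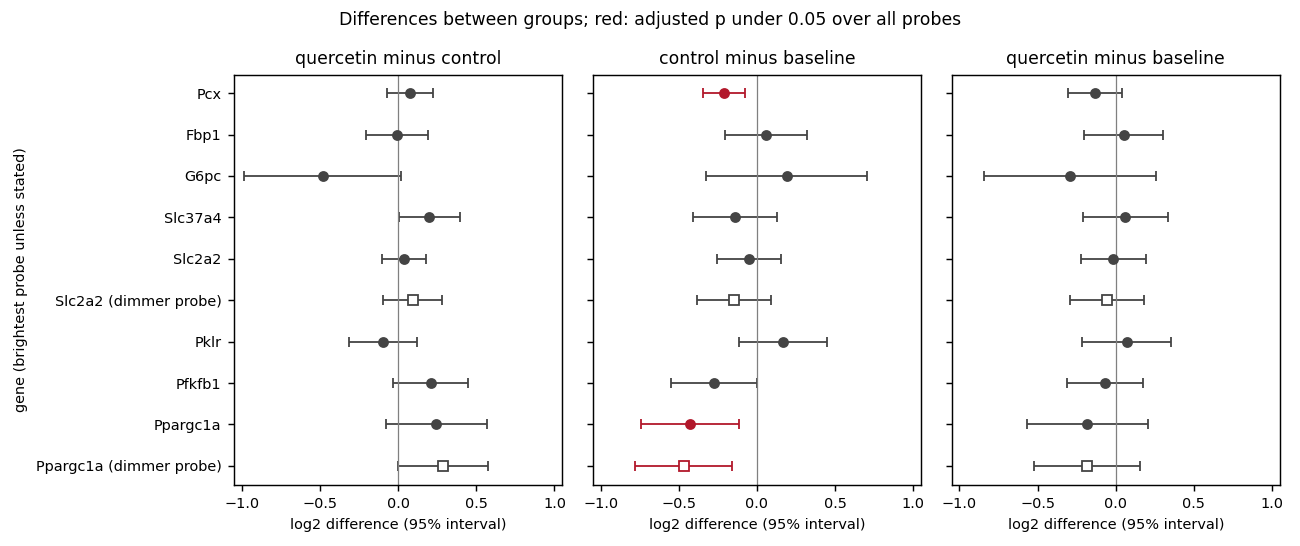
Log2 differences of the 10 member probes in the 3 comparisons, with 95% intervals from limma and 12 livers in each group. Filled circles are the brightest probe of a gene and open squares the dimmer probe of Slc2a2 and Ppargc1a, and red marks an adjusted p under 0.05, which Pcx (-0.21) and both probes of Ppargc1a (-0.43 and -0.47) reached in the control group against baseline alone.

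The comparison of the control with the baseline group shows how the genes moved over the 12 weeks without quercetin. Pcx and Ppargc1a were lower in the control group, 2 of 8 members or 3 of 10 probes, and no member was higher. Of all probes, 21.3% were called in this comparison and 10.4% were called lower, so that 2 of 8 members is near the share in either direction and above the share called lower, and nothing particular to the members is read from a count this small. Of the called probes, 51.3% were higher in the control group, and 85% after normexp and median centring, which moved the median difference over all probes from -0.01 to 0.10. At an unadjusted p under 0.05 there were 3 members, the third being Pfkfb1.

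Pcx ranged from 14.54 to 15.15 in the baseline livers (median 14.87), from 14.47 to 14.83 in the control livers (median 14.67) and from 14.51 to 15.35 in the quercetin livers (median 14.66). All 12 control livers lay below the baseline median, though 11 of them were within the baseline range. The difference of -0.21 (SE 0.07, 95% interval -0.34 to -0.08) is a 1.16-fold lower level (limma, adjusted p = 0.0225), and the control liver was lower on 8 of 9 slides. Without control replicate 5, the liver with pancreas transcripts, it was -0.19 (limma, adjusted p = 0.0367), and it passed the threshold without any other single liver too. With normexp background correction and median centring of the scanner intensities, it shrank to -0.08 (limma, adjusted p = 0.612).

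Ppargc1a ranged on its brighter probe from 9.72 to 11.07 in the baseline livers (median 10.49), from 9.47 to 10.499 in the control livers (median 9.93) and from 9.60 to 11.27 in the quercetin livers (median 10.04). The control livers clustered at the low end of the baseline range, and 11 of 12 lay below the baseline median. The difference was -0.43 (SE 0.15, 95% interval -0.74 to -0.12, limma adjusted p = 0.0447), a 1.35-fold lower level, and the dimmer probe gave -0.47 (SE 0.15, limma adjusted p = 0.0281). This call sits close to the threshold. It was lost in 7 of the 14 alternatives that tested it, among them the methods' t-test (adjusted p = 0.0692) and the slide as a block (-0.39, adjusted p = 0.118), and in 16 of the 24 fits that left out a single liver, where the adjusted p reached 0.0825 without baseline replicate 11.

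The other 6 members did not pass the threshold between control and baseline. Pfkfb1 was -0.28 (95% interval -0.55 to -0.00, limma adjusted p = 0.14), Slc37a4 -0.14 (95% interval -0.41 to 0.13) and Slc2a2 -0.05 (95% interval -0.26 to 0.15) on its brighter and -0.15 on its dimmer probe. G6pc was 0.19 (95% interval -0.32 to 0.71), Pklr 0.17 (95% interval -0.11 to 0.45) and Fbp1 0.06 (95% interval -0.20 to 0.32). Of the 9 hepatocyte markers, 5 had lower and 4 higher values in the same comparison, among them Alb at 0.03, and 3 were called, all lower (Hpd, Cyp2e1 and Cps1). Of all probes, 10.9% were called higher and 10.4% lower in this comparison. Of the cholangiocyte markers 3 of 6 and of the erythroid markers 2 of 4 were called higher, of the endothelial markers 1 of 6 was called in each direction, and of the macrophage markers none was called, with all 6 values higher and a median of 0.31. Their part in the lower values of Pcx and Ppargc1a was not tested.

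Between the quercetin and the baseline group, 0 of 8 members were called (limma), where 11.9% of all probes were. No member reached an unadjusted p under 0.05, against 5766 of all probes, and the methods' t-test called 0 members too. Pcx was -0.14 (95% interval -0.31 to 0.04) and Ppargc1a -0.18 (95% interval -0.57 to 0.20), lower in the quercetin liver on 7 and 8 of 9 slides, respectively. G6pc was -0.29 (95% interval -0.84 to 0.26), and the other 5 members lay between -0.07 for Pfkfb1 and 0.07 for Pklr. This comparison shares its baseline livers with the one before it and its quercetin livers with the first. Whether the quercetin and the control group differ in the change from baseline is the quercetin against control comparison itself, in which neither Pcx nor Ppargc1a was called.

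The remaining genes of the pathways give the setting of these values. Between the quercetin and the control group, where 2.36% of all probes were called, 0 of 23 measured glycolysis enzymes were. Their median difference was -0.07, beside 0.01 over all probes and -0.005 over the brightest probes of all named genes. Of 18 other enzymes and carriers of gluconeogenesis, 1 was called, Slc16a7, a transporter of lactate and pyruvate, at 0.35 (SE 0.08, limma adjusted p = 0.0217). The call of Slc16a7 was lost in 3 of 14 alternatives, among which its difference was as low as 0.13. Of 27 transcriptional regulators, 1 was called, Sik1, a kinase that restrains the CREB coactivators, at 0.38 (SE 0.105, limma adjusted p = 0.0479). That call was lost in 20 of 24 fits without a single liver. None of 9 genes of pyruvate dehydrogenase control, of 11 genes known to be higher in the fasted liver (median 0.16) or of 10 known to be higher in the fed liver (median -0.22) was called.

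Between the control and the baseline group the pathway genes moved in both directions. Of the 23 glycolysis enzymes, 6 were called and all 6 were higher in the control group: the hexokinases Hk1 (0.27) and Hk2 (0.41), the phosphofructokinase Pfkp (0.23), the lactate dehydrogenases Ldha (0.36) and Ldhb (0.27), and Pfkfb4 (0.24), a relative of Pfkfb1. The median over the list was 0.11, beside -0.01 over all probes and 0.02 over the brightest probes of all named genes. Of the list 26.1% were called, beside 21.3% of all probes in either direction and 10.9% called higher. Among probes over 4 times background in both channels the share was also 26.1%, with 64.8% of those calls higher. The calls of Pfkp and Hk2 were lost in 9 and 3 of 24 fits without a single liver.

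Of the 18 other gluconeogenesis genes, 8 were called between control and baseline, or 44.4%, beside 21.3% of all probes. The 5 that were lower hold the transaminases Got1 (-0.60), Gpt (-0.27) and Gpt2 (-0.37), the serine dehydratase Sds (-0.68) and the glycerol channel Aqp9 (-0.30), which bring amino acids and glycerol into glucose synthesis. The 3 that were higher were Pck2 (0.38), the mitochondrial counterpart of Pck1, the glycerol-3-phosphate dehydrogenase Gpd1 (0.29) and the lactate transporter Slc16a1 (0.33). The call of Pck2 was lost in 13 and that of Gpt2 in 7 of 24 fits without a single liver, and that of Gpd1 in 8 of 14 alternatives. Of 27 regulators 3 were called, or 11.1%, beside 21.3% of all probes. Ppargc1b, the paralogue of Ppargc1a, was lower (-0.62, SE 0.16), as was the hepatocyte factor Onecut1 (-0.88, SE 0.25), and Creb1 was higher (0.21, SE 0.07). In the control of pyruvate dehydrogenase, 3 of 9 genes (33.3%) were called. The kinase Pdk4 was higher (0.50), Pdk2 was lower (-0.30) and the phosphatase Pdp1 was higher (0.20). Without a single liver the call of Pdp1 was lost in 12 and that of Creb1 in 5 of 24 fits.

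Of 11 genes known to be higher in the fasted liver, 7 (63.6%) were called between control and baseline, beside 21.3% of all probes. The 5 that were lower in the control group included Cpt1a (-0.37), which admits fatty acids to the mitochondrion, Angptl4 (-0.63), Lpin1 (-0.88) and Sds, and the hormone gene Fgf21 (1.52) and Pdk4 were higher. The calls of Angptl4 and Lpin1 were lost in 18 and 14 of 24 fits without a single liver. Of 10 genes known to be higher in the fed liver, 3 were called, all higher in the control group: Fasn (0.84), Scd1 (0.73) and Pnpla3 (0.99). Against the same baseline livers, where 11.9% of all probes were called, the quercetin group had 3 of 23 glycolysis enzymes called (Ldha 0.30 and Pfkfb4 0.26 higher, Pgk1 -0.25 lower), 6 of 18 gluconeogenesis genes (Pck2 0.30, Mpc2 0.21 and Gpd1 0.26 higher, Got1 -0.70, Sds -0.73 and Gpt -0.24 lower), 2 of 27 regulators (Sik1 0.50 higher, Gckr -0.23 lower), 1 of 9 genes of pyruvate dehydrogenase control (Pdp1 0.17 higher) and, of the fasted and the fed list, Sds alone. Several of these calls were weak, since that of Pgk1 was lost in 17, Mpc2 in 16, Gpd1 and Pdp1 in 15 each and Ldha in 9 of 24 fits without a single liver, and that of Gpd1 in 12 of 14 and of Pdp1 in 11 of 13 alternatives.

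**Figure D3:**
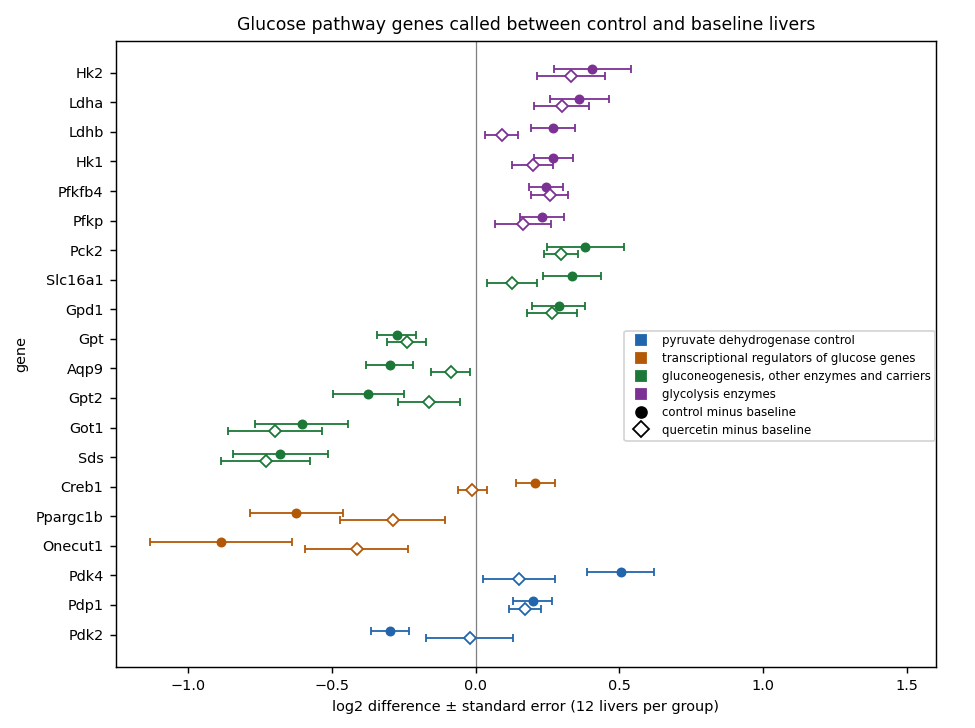
Glucose pathway genes outside the members that were called between the control and the baseline group, with the log2 difference and its standard error (12 livers per group). Filled circles are control minus baseline and open diamonds quercetin minus baseline, both against the same 12 baseline livers, and colours mark the list, with the glycolysis enzymes to the right of 0 and Sds and Got1 near -0.7.

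The members also varied together from liver to liver within the groups. Pearson correlations were computed over all 36 livers after subtracting each group's mean, for all 28 pairs of members, with p-values from 100000 permutations within groups and Benjamini-Hochberg adjustment over the 28. By this test 7 pairs passed an adjusted p of 0.05, and 4 of these passed again without the 2 livers farthest from the median of the first gene. By Spearman's rho 6 of the 7 pairs passed.

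Slc2a2, Slc37a4, Pfkfb1 and Pklr rose and fell together, with 5 of their 6 pairs past the threshold. The strongest pair was Slc2a2 with Slc37a4, the carriers at the cell membrane and at the endoplasmic reticulum, with r = 0.64 and rho = 0.63 (permutation adjusted p = 0.00392 and 0.00616), and r = 0.63 without the 2 livers farthest from the median. Pfkfb1 with Slc37a4 reached r = 0.60 and rho = 0.55 (permutation adjusted p = 0.00392 and 0.0121), and r = 0.55 without 2 livers. Pklr with Slc2a2 reached r = 0.59 and rho = 0.57 (permutation adjusted p = 0.00826 and 0.0121), and r = 0.53 without 2 livers. Pfkfb1 with Pklr (r = 0.56, rho = 0.50, permutation adjusted p = 0.00541 and 0.0189) and Pfkfb1 with Slc2a2 (r = 0.49, rho = 0.54, permutation adjusted p = 0.0227 and 0.0122) did not pass without 2 livers, at r = 0.38 and 0.46.

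These relations were strongest among the baseline livers. Within the baseline group the 5 pairs had r from 0.67 to 0.81, within the control group from 0.29 to 0.77 and within the quercetin group from -0.18 for Pfkfb1 with Pklr to 0.48 for Pfkfb1 with Slc37a4. The difference between groups was not tested. After the slide means were subtracted as well, the 5 pairs had r from 0.53 to 0.69.

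Fbp1 varied with Pcx (r = 0.46, permutation adjusted p = 0.0227), although rho was 0.38 (permutation adjusted p = 0.0896), and the relation missed the threshold on loess-normalized ratios (r = 0.39, adjusted p = 0.118). G6pc ran against Ppargc1a, with r = -0.48 and rho = -0.48 (permutation adjusted p = 0.0227 and 0.0208), and r = -0.45 (adjusted p = 0.0515) without 2 livers. The sign was negative within each group, with -0.62 among baseline, -0.26 among control and -0.46 among quercetin livers. Over all 36 livers G6pc had a negative r with every other member, from -0.06 for Fbp1 to -0.48 for Ppargc1a, and of these pairs the one with Ppargc1a passed. For other pairs the sign did not hold in every group. Within the quercetin livers r was 0.57 with Slc2a2, 0.53 with Pfkfb1 and 0.19 with Slc37a4, and negative with the remaining members. With Fbp1 it was 0.15 among baseline and 0.02 among control livers.

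**Figure D4:**
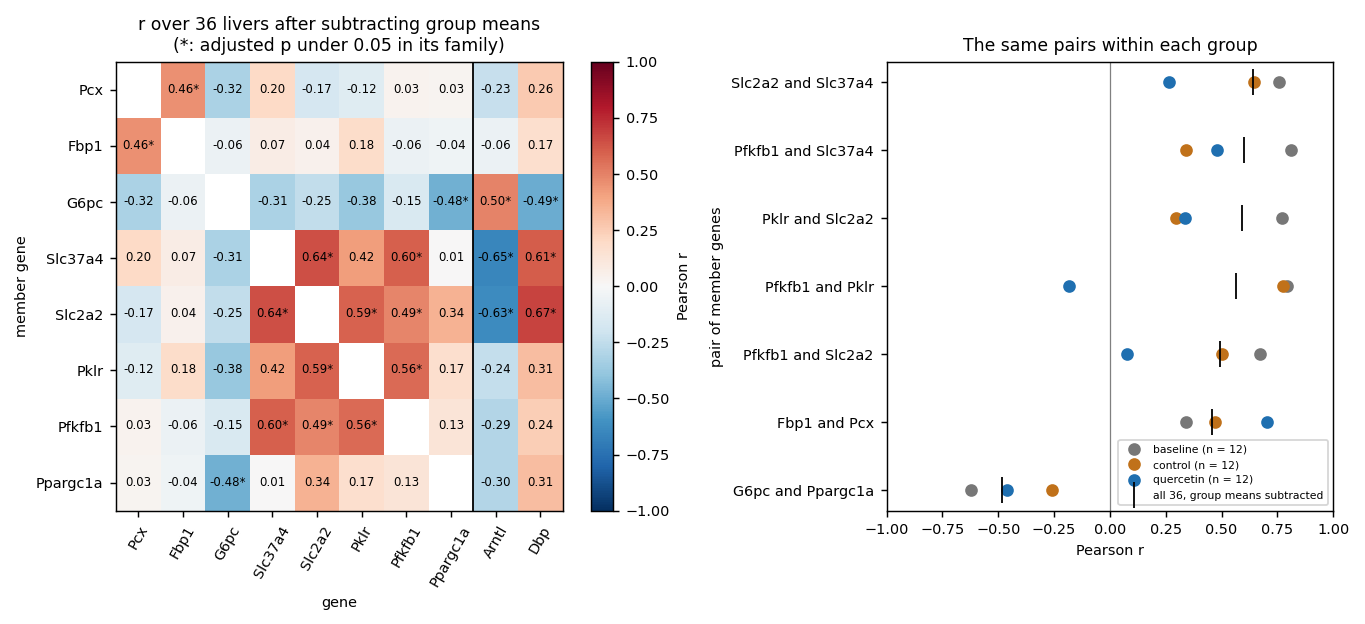
Left, Pearson r of each member (rows) with the other members and with Arntl and Dbp (columns) over 36 livers after subtracting group means, in colour and figures, with an asterisk for an adjusted p under 0.05 within its family of 28 or 16 relations. Right, r of the 7 member pairs past the threshold within each group of 12 livers (points) and over all 36 (vertical tick), with baseline points at or above 0.67 for the 5 pairs of Slc2a2, Slc37a4, Pfkfb1 and Pklr.

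The clock genes Arntl, an activator of the circadian clock, and Dbp, one of its output factors, differed between the quercetin and the control group by -0.998 (SE 0.187, limma adjusted p = 0.0034) and 0.92 (SE 0.19, limma adjusted p = 0.00741), and 7 of 14 measured clock genes were called, beside 2.36% of all probes. The relation of the members to Arntl and Dbp was added after the values were seen, as 16 relations adjusted together, of which 6 passed. Slc37a4 had r = -0.65 with Arntl and 0.61 with Dbp, Slc2a2 -0.63 and 0.67, and G6pc 0.50 and -0.49, with permutation adjusted p from 0.00112 to 0.011. Spearman's rho passed for all 6, at -0.57 and 0.51 for Slc37a4, -0.57 and 0.63 for Slc2a2, and 0.51 and -0.47 for G6pc (permutation adjusted p from 0.00571 to 0.0147). All 6 passed without the 2 livers farthest from the member's median, with sizes of r from 0.46 for Slc37a4 with Dbp to 0.57 for Slc2a2 with Dbp.

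The relations with Arntl and Dbp were weaker without a set of baseline livers. Baseline replicates 2, 3, 4 and 6 had a Dbp value of at most 14.23 and the other 8 baseline livers at least 15.71. Arntl ran the other way, at 8.85 or more in these 4 livers and at most 8.20 in the other 8. The relations of a member with Arntl and with Dbp are therefore not independent of each other. Without these 4 livers, over the other 32, none of the 16 relations passed, and r with Arntl and with Dbp was -0.41 and 0.24 for Slc37a4, -0.38 and 0.37 for Slc2a2, and 0.22 and -0.13 for G6pc. The 4 livers were picked by the widest gap in Dbp itself. Leaving them out narrows the range of Dbp and Arntl, which can lower r by itself, so that this fit cannot decide whether the relations depend on these livers. Within the 12 control livers, which hold none of these 4, r was -0.52 and 0.54 for Slc37a4, -0.53 and 0.49 for Slc2a2, and 0.50 and -0.38 for G6pc. Within the quercetin livers it was -0.18 and -0.28 for Slc37a4, -0.28 and 0.23 for Slc2a2, and 0.14 and -0.00 for G6pc. The pairs of members themselves were less affected, with 6 of the 7 still past the threshold and r = 0.52 for Slc2a2 with Slc37a4, the exception being G6pc with Ppargc1a (r = -0.44, permutation adjusted p = 0.0629).

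With Arntl as a covariate in the comparison of the quercetin and the control group, the difference of G6pc went from -0.48 to -0.10 and that of Slc37a4 from 0.20 to 0.04, and 1 of 21780 probes was called in place of 513. Arntl itself differed between these groups, and the diet and the level of Arntl cannot be told apart in this fit.

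The genes with the pattern most like that of a member were sought among 13041 named genes by the same group-centred r over 36 livers, and are given as a description without a test. For Pcx the closest were Acaa1a, a peroxisomal thiolase (r = 0.78), and Cc2d1b (0.78). For Ppargc1a they were Bcl2l1, an inhibitor of apoptosis (0.76), the homeobox gene Hhex (0.75) and Fchsd2 (0.74).

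The same search for the other members was added after the values were seen. Slc37a4 was closest to Fam47e (r = 0.86), the clock gene Per2 (0.82) and Marveld1 (0.79). G6pc was closest to Tmcc1 (0.75), B230217O12Rik (0.72) and Ddc, the aromatic amino acid decarboxylase (0.72), with Nfil3, a clock repressor, in the fifth place (0.71). Pfkfb1 and Pklr shared Thrsp, a lipogenic gene, among their 3 closest (0.77 and 0.82), and Pklr was also close to Acly (0.82), which makes the acetyl-CoA for fatty acid synthesis. Slc2a2 was closest to Ap3m1 (0.82), Cnn3 (0.79) and Hnmt (0.79), and Fbp1 to Epb41 (0.72), Ube2r2 (0.71) and the liver protease Hpn (0.69).

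Pklr had the highest likeness of any member, to Hcn3 at r = 0.92 and rho = 0.89. Hcn3 encodes an ion channel and is the neighbour of Pklr on chromosome 3, where the 2 gene spans of RefSeq (GRCm38.p6) overlap by 41 bases and the 2 probes of the array (mm8) are 0.797 kb apart. Whether the 2 probes detect a shared transcript was not tested, so that the values of Pklr are uncertain to that extent.

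**Figure D5:**
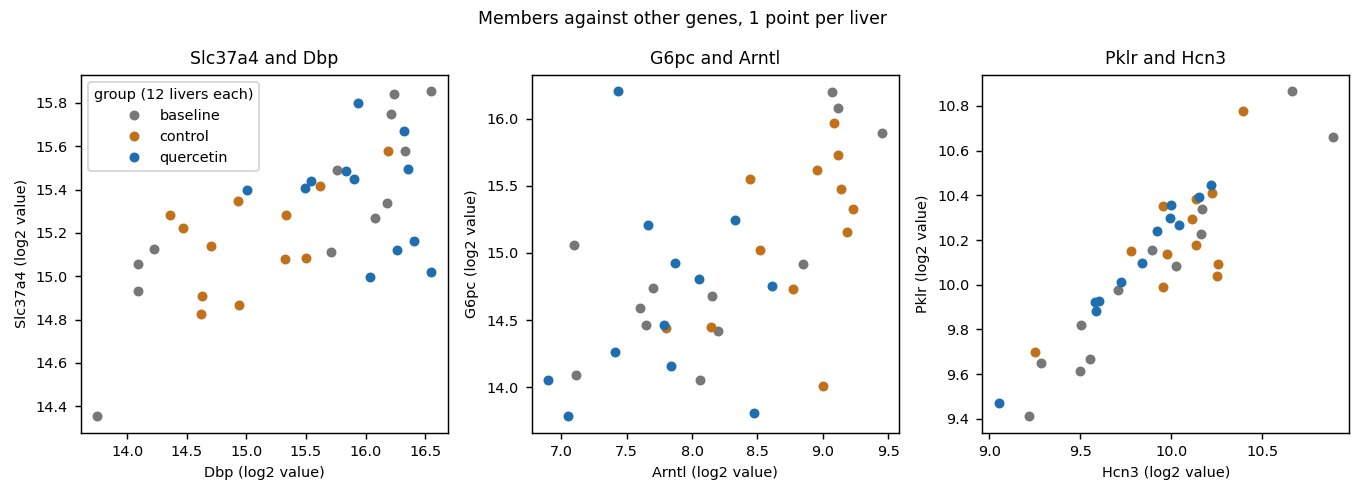
Log2 values of a member against another gene, 1 point per liver and 12 livers per group: Slc37a4 against Dbp, G6pc against Arntl and Pklr against Hcn3. The 4 baseline livers at the left of the first panel have Dbp at or below 14.23, and the points of Pklr and Hcn3 lie along a line in all 3 groups.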

How the data were processed

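RNA of 36 livers was hybridized against a Cy3 pool on Agilent 4×44 K arrays (9 slides of 4 arrays, all groups on each slide). The deposited files hold spot and background intensities, which the authors quantified with Feature Extraction (10.5.1.1 per the file headers), and the authors' table of log2 values of Cy5 normalized against Cy3 for 23256 expressed spots, without background correction, so that differences of dim probes are compressed. Spots of a probe were averaged to 21781 probes. Probes were named by accession (24375 of 41174) or name (8727), and a gene's value is that of its brightest probe. Pairs of groups were compared with limma 3.58.1 in R 4.3.3 (lmFit, eBayes, two-sided tests), with Benjamini-Hochberg adjustment over all probes and a call at an adjusted p under 0.05. The number of arrays limits the precision, and replicates are separate mice. The alternatives changed the normalization, filter, test, slide, array position, replicate block, covariate and livers used. Added after the values were seen were the relations with Arntl and Dbp, the within-slide correlations, the fits without 4 baseline livers and the search for like genes of uncalled members. The members and lists were chosen with earlier results of these data known. Genes were named if they were members, called genes of the lists, Arntl or Dbp, or the 3 closest in pattern to a called member, and promoters were printed for called members. Some genes that this rule names are not reported here, although the lists' counts hold them. Code was tested on simulated data. Correlations and plots used Python 3.11.15 (matplotlib 3.10.9). The serum, diet and RT-qPCR measurements were not used here.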

Additional observations from a re-analysis of the deposited data

How the results depend on the processing

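The count of 0 called members in both comparisons of the quercetin group held under all alternatives and without any single liver. The 2 calls between control and baseline became 0 with normexp and median centring and with Arntl as a covariate, and 1, Pcx, with the methods' t-test, all 36 arrays in 1 fit, the slide as a block, array position as a term or the replicate block (Ppargc1a adjusted p = 0.0791). Without a single liver the count was 1 to 2, at 1 without baseline replicate 1, 3, 5, 7, 8, 10 or 11 or control replicate 1, 2, 4, 5, 7, 8, 9, 10 or 11. The cause was not tested. Replicate numbers gave no pairing of mice, with a median correlation of residuals of -0.01, 0.06 and 0.03 in the 3 pairs of groups, and the replicate block gave 360 called probes in place of 513 between quercetin and control. In that comparison median centring after normexp gave 77, the slide as a block 210 and Arntl as a covariate 1, and median centring gave 396 in place of 2596 between quercetin and baseline. The share of called probes higher in the quercetin than in the control group was 63.4%, and 32.5% with that centring.

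Differences that changed sign were all of members or genes that were not called in the comparison itself. Between quercetin and control livers, Fbp1 was 0.023 with loess and no background correction, 0.080 with quantile normalization, 0.029 with Feature Extraction signals and -0.052 to 0.031 without a single liver, and with Arntl as a covariate Slc2a2 was -0.094. Between control and baseline, Fbp1 was -0.031 with normexp and loess, on the table's probes and on all probes, -0.027 with loess alone and -0.008 with Feature Extraction signals, Slc2a2 was 0.073 with median centring, and with Arntl as a covariate G6pc was -0.229, Slc2a2 0.126, Slc37a4 0.122 and Dbp 0.374 (adjusted p = 0.0258). Between quercetin and baseline, Fbp1 was -0.054 with normexp and loess in both sets of probes and -0.005 with loess alone. With median centring Pfkfb1 was 0.041 and Slc2a2 0.097. Slc2a2 was 0.030 with array position as a term, and with Arntl as a covariate Slc37a4 was -0.077. Without a single liver, Slc2a2 was -0.061 to 0.025 and Slc37a4 -0.025 to 0.112.

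Of the 7 correlated pairs of members, 4 pairs passed without the 2 farthest livers. Of the 6 relations with Arntl and Dbp, 0 passed without the 4 baseline livers low in Dbp, which were picked on Dbp itself. The number of arrays sets the width of every interval, and the dimmer Ppargc1a probe, at 3.98 times background in Cy3, was the least bright.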
